A study of Mus musculus with 9 samples.

Results

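The collagen genes were taken as all genes of the table whose mouse symbol is Col, a number, a and a number, which gave 44 of 54491 rows. They were divided by the structure of their proteins into 11 fibrillar collagens, 9 basement membrane collagens, 6 beaded filament collagens, 9 fibril-associated collagens (FACIT), 3 short-chain network collagens, 4 transmembrane collagens and 2 others. Their RNA was measured by sequencing of colon from C57BL/6 mice that were 6 weeks old at the start and were sampled at postnatal day 98. The 3 groups were labelled control, high-fat diet (HFD), and the same diet together with gavage of Papillibacter cinnamivorans, a gut bacterium dosed through a tube into the stomach. Each group of 15 mice is represented by 3 libraries, which carry replicate numbers 1, 2 and 3 in control, 1, 2 and 4 in HFD, and 1, 3 and 4 in HFD with P. cinnamivorans. Gavage is named for the bacterium group alone, so the bacterium and the gavage cannot be told apart. The labels give no stretch of the colon and do not state whether libraries stand for separate mice, so the p-values measure the spread between libraries, which may be technical.

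Collagens are the chief structural proteins of the extracellular matrix, built from chains that wind around each other into a rope-like helix. Fibrillar collagens (types I, III and V in most soft tissue) are secreted as procollagens, trimmed at both ends and packed into fibrils that carry tension in the submucosa and muscle wall of the gut. Type IV chains form the sheet-like network of basement membranes under epithelium and around vessels and smooth muscle. FACIT and beaded filament collagens sit on or between fibrils, and transmembrane collagens stay anchored in the cell surface.

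Values are FPKM, fragments scaled by exonic length and by the size of the library, as the authors deposited them, and are given as mean ± SD over 3 libraries. Whole fragment counts could be recovered for 41 of the 44 collagen genes, at 18238 to 43910 fragments per library over those genes, and from 14475283 to 16897671 fragments per library over all genes with whole counts. A single fragment in 1 kb of exon was worth 0.0533 to 0.0715 FPKM. Libraries stood apart in ways that bear on every comparison below. Summed FPKM of 4 distal Hox genes, which mark the hind end of the gut, was 241 to 263 in HFD, 0.501 to 34.2 in control and 2.47 to 12.3 in HFD with P. cinnamivorans, and Hoxd12 was listed at 0 in all libraries of the last 2 groups. Markers of the proximal colon ran the other way, at 14.4 to 35.6 in HFD, 379 to 2063 in control and 1003 to 1301 with the bacterium. The HFD group and this difference in position markers cannot be told apart. Control replicate 1 also stood apart from the other controls: its 8 smooth muscle markers summed to 6781 FPKM against 1837 and 1293, and its correlation with them was 0.932 and 0.928 where theirs with each other was 0.975. Epithelial markers were high in every library (3736 to 7577 FPKM summed over 8 genes), and markers of stratified squamous epithelium summed to 0.558 to 1.69 FPKM over 7 genes.

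The collagen RNA of the colon was dominated by a few chains. By mean level over the 9 libraries Col3a1 was the highest at 51.8 FPKM, followed by Col6a1 at 35.9, Col4a1 at 26.96, Col1a1 at 23.5, Col4a2 at 21.2 and Col1a2 at 19.5. With Col6a2, Col6a3 and Col5a1 these 9 genes held 77.6% to 84.0% of summed collagen FPKM. Summed over all 44 genes, collagen FPKM was 344, 216 and 161 in control, 283, 287 and 294 in HFD and 214, 253 and 271 in HFD with P. cinnamivorans. The 3 HFD libraries lay close together, whereas the 3 controls spanned a range that held all other libraries. Of the 28 collagen genes that reached at least 0.5 FPKM in at least 3 libraries, 14 had their highest value in control replicate 1 and 14 their lowest in control replicate 3, against 19.1% and 13.0% of all 17907 genes that passed the same minimum. In bulk tissue, fewer collagen-producing cells and less collagen RNA per cell cannot be told apart.

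**Figure D1:**
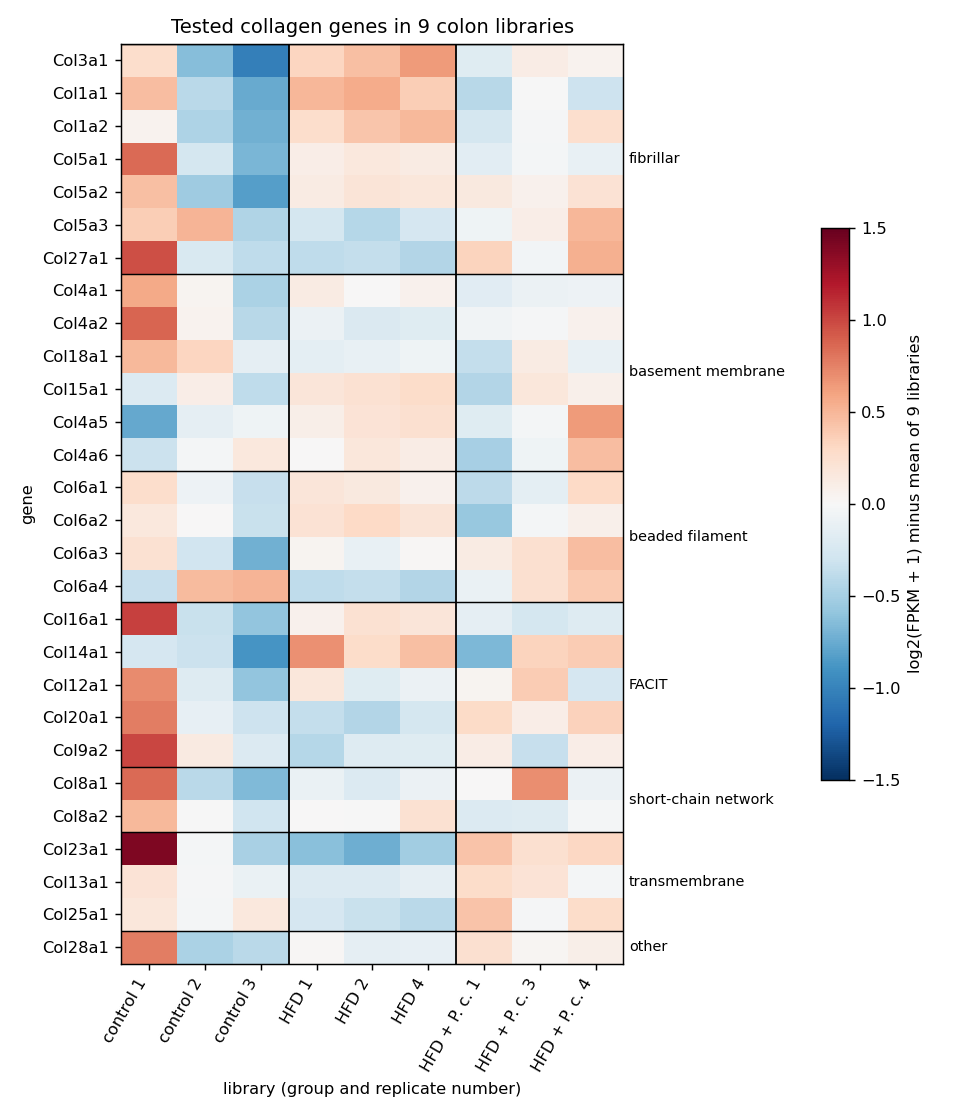
Heat map of log2(FPKM + 1) minus the mean of the 9 libraries, with 1 row for each of the 28 collagen genes above the minimum, grouped by class, and 1 column per library. Control replicate 1 holds the highest value for 14 genes and control replicate 3 the lowest for 14, and the first 3 fibrillar rows are high in the 3 HFD libraries.

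Stretches before the start of 4 genes are shown because the results turn on them: Col1a2 and Col25a1 are the genes called over all libraries, and Col3a1 and Col23a1 are the fibrillar and transmembrane genes with the highest mean level. They are from RefSeq on GRCm38.p6, 5′ to 3′. Capitals mark the motif TATAAA, known from core promoters, the box CCAAT, bound by NF-Y, and the box GGGCGG, bound by Sp factors, each on either strand. No matches overlapped each other in these stretches, and the Col1a2 stretch is limited to bases that lie in no annotated exon. The part of Col1a2 left out holds a CCAAT box, 109 bases before the start.
Col3a1 (chr1:45311288-45311537, plus strand): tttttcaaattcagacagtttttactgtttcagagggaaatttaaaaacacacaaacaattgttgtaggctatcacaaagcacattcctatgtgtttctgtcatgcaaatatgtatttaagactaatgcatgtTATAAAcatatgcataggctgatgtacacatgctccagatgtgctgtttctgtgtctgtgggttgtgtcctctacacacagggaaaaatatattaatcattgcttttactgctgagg
Col1a2 (chr6:4505370-4505492, plus strand): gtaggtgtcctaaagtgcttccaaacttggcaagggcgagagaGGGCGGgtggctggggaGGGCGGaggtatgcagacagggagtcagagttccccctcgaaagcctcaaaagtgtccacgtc
Col23a1 (chr11:51289670-51289919, plus strand): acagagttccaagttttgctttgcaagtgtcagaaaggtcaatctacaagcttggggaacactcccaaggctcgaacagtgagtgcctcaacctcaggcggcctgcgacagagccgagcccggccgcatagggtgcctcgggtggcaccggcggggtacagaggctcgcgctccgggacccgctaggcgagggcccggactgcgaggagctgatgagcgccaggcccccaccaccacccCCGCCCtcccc
Col25a1 (chr3:130180595-130180844, plus strand): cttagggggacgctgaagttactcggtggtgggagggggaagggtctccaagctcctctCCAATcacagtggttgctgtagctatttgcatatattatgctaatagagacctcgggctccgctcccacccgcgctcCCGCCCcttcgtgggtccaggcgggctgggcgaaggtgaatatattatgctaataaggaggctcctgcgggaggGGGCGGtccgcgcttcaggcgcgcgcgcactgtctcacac
The Col3a1 stretch is AT-rich at 35.2% G or C, against 66% in that of Col23a1 and 60.4% in that of Col25a1. RefSeq promoters matched 35 of the 44 genes, and the first listed start was used. In the 250 bases before it, TATAAA on either strand stood in 5 of the 35 (14.3%) against 12.4% of 32851 promoters, CCAAT in 12 (34.3%) against 33.8%, and GGGCGG in 21 against 32.7%. The 32851 promoters hold every listed start of a gene, so these shares are not from like sets. The chains of the main type IV collagen, Col4a1 and Col4a2, start 21 bases apart on opposite strands of chromosome 8, head to head. There is no gap between them, since their annotated exons share 22 bases.

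HFD was compared with control to ask how collagen RNA differed with the diet. Col1a2, a chain of type I collagen, rose in HFD. The other chains of types I and III, the transmembrane collagens and the basement membrane chains were not called. Among the 28 genes tested, 1 was called higher (Col1a2) and 0 lower at an adjusted p below 0.05 (limma on log2(FPKM + 1), Benjamini-Hochberg over 17907 genes), where 10.6% of all genes were called higher and 9.11% lower. At an unadjusted p below 0.05 there were 4 higher and 3 lower, beside 17.5% and 17.2% of all genes. Groups did not overlap for 6 collagen genes that were higher in HFD and 4 that were lower, of 28, beside 21.9% and 20.1% of all genes.

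Col1a2, which encodes the second chain of type I collagen, had 19.6, 13.4 and 10.98 FPKM in control (2066 to 4147 fragments) and 22.8, 25.6 and 26.7 in HFD (5304 to 5812 fragments). Every HFD library lay above every control. Its level rose from 14.7 ± 4.46 to 25.0 ± 2.03 FPKM (n = 3 each), a log2 difference of 0.77 (SE 0.21, limma adjusted p = 0.035). The call was lost without control replicate 2 or 3 or without any of the 3 HFD libraries, with adjusted p from 0.0755 to 0.119.

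Col3a1, the chain of type III collagen that forms the fine fibrils of the gut wall, had 58.9, 31.2 and 23.6 FPKM in control and 61.5, 67.3 and 76.5 in HFD. The lowest HFD library was just above control replicate 1 and well above the other controls. The log2 difference was 0.93 (SE 0.29) and missed the threshold (limma adjusted p = 0.051). Col1a1, the first chain of type I collagen, had 31.3, 16.6 and 12.8 FPKM in control and 32.0, 33.3 and 29.1 in HFD, so control replicate 1 lay within the HFD range. Its log2 difference was 0.71 (SE 0.28, limma adjusted p = 0.11). Of the other fibrillar chains tested, the log2 difference was 0.46 for Col5a2 and 0.16 for Col5a1, both chains of type V collagen, and -0.46 for Col5a3 and -0.51 for Col27a1. None of these 4 was called. Over the 7 fibrillar genes tested the median log2 difference was 0.46, against 0.00 over all genes tested. With voom at the same minimum FPKM it was 0.65 over 6 genes. It turned to -0.13 over the 9 fibrillar genes that entered voom at a minimum of 10 fragments. These include Col11a1, Col11a2 and Col24a1, which were below 0.5 FPKM in every library, and lack Col5a1, which has no whole counts.

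**Figure D2:**
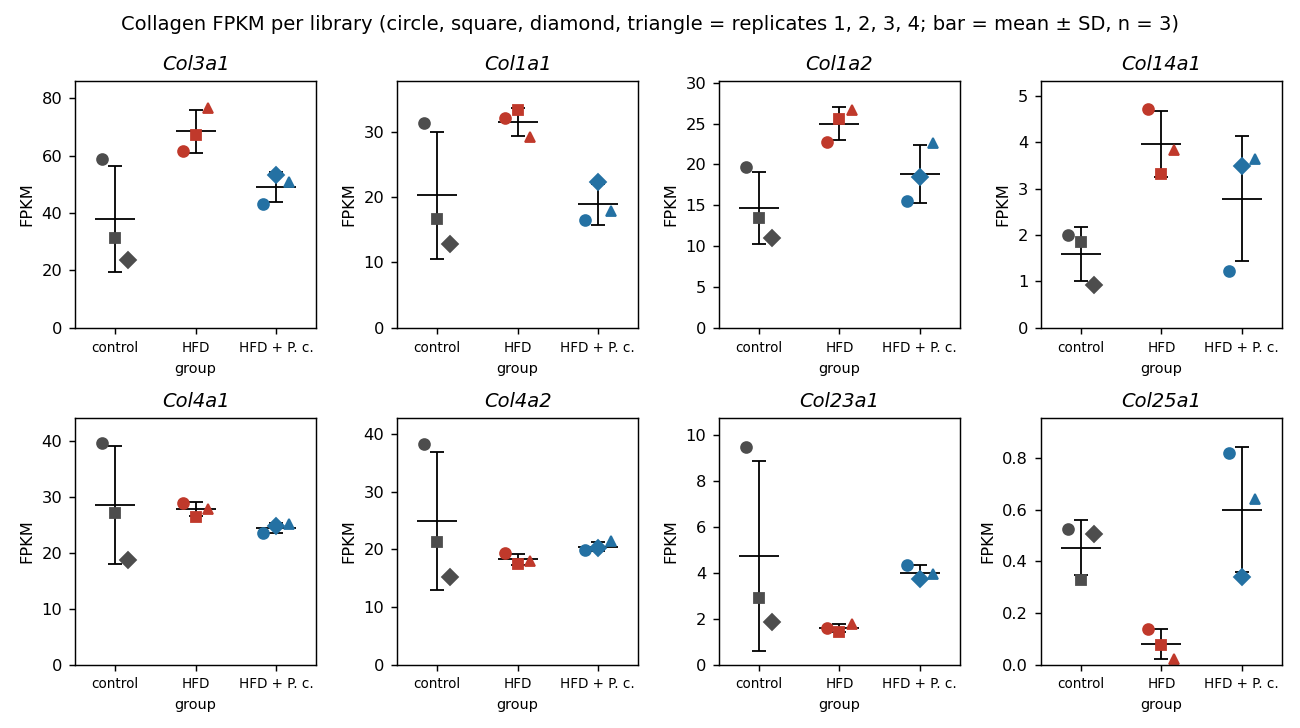
FPKM of 8 collagen genes in each of the 9 libraries by group, with mean ± SD (n = 3 libraries) as black bars and linear axes from 0. Col3a1 and Col1a2 are higher in all 3 HFD libraries than in any control, Col25a1 is lower in all 3, and control replicate 1 (circle) is the highest control for all 8 genes.

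These values move with control replicate 1. Without that library 8 of 27 collagen genes tested were called (25.7% of all genes were), 7 of them higher in HFD: Col3a1 (log2 difference 1.30, limma adjusted p = 0.0011), Col1a1 (1.056), Col1a2 (0.98), Col5a2 (0.84), Col5a1 (0.60), Col16a1 (0.62) and Col14a1 (1.07), while Col6a4 fell by 0.88. Smooth muscle markers, whose cells also make collagen, summed to 1288 to 1448 FPKM in HFD and 1293 to 6781 in control. Fibroblast markers other than Dpep1 summed to 231 to 240 FPKM in HFD and 101 to 254 in control. With Dpep1, which fell from 177 ± 21.7 to 14.7 ± 2.55 FPKM, the list of 10 summed to 246 to 254 in HFD and 277 to 411 in control. Setting Dpep1 aside was chosen after its values were seen, and the part of these cell types in the collagen differences was not tested.

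Of the basement membrane collagens 6 of 9 were tested and 0 were called in HFD against control. Col4a1, the main type IV chain, had 39.7, 27.2 and 18.8 FPKM in control and 29.0, 26.5 and 27.9 in HFD, so that HFD lay inside the control range (log2 difference 0.02, SE 0.22). Its partner Col4a2 had 38.3, 21.3 and 15.1 FPKM in control and 19.3, 17.5 and 18.0 in HFD, again within the control range (-0.33, SE 0.27). Col18a1, the source of the angiogenesis inhibitor endostatin, had 9.01, 7.90 and 5.51 FPKM in control against 5.45, 5.62 and 5.82 in HFD. Col15a1, a related basement membrane proteoglycan, and Col4a5, a chain of smooth muscle and kidney basement membranes, lay higher in HFD without overlap but were not called, at log2 differences of 0.39 and 0.50. The class median was 0.09.

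The beaded filament collagen type VI, which links cells to the surrounding fibrils, differed little between HFD and control. Col6a1 had 42.9, 33.6 and 27.7 FPKM in control and 40.2, 39.4 and 37.0 in HFD. Col6a2 had 15.5, 13.9 and 10.7 FPKM in control and 16.2, 17.3 and 15.9 in HFD, without overlap. Col6a3 had 8.76, 5.87 and 4.06 FPKM in control and 7.60, 6.74 and 7.45 in HFD. The log2 differences of these 3 genes were 0.18, 0.29 and 0.24, and none was called. Col6a4, a further type VI chain, ran the other way, from 1.26, 2.99 and 3.10 FPKM in control to 1.21, 1.24 and 1.13 in HFD, a log2 difference of -0.60 (SE 0.23, limma adjusted p = 0.10).

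Of the FACIT collagens, which decorate fibril surfaces, Col14a1 showed the widest gap. It had 1.996, 1.84 and 0.92 FPKM in control (98 to 238 fragments) and 4.72, 3.31 and 3.84 in HFD (416 to 621 fragments), with no overlap. The log2 difference was 0.96 (SE 0.30) and missed the threshold (limma adjusted p = 0.052). Col16a1 had 9.39, 3.04 and 2.38 FPKM in control against 4.33, 4.97 and 4.79 in HFD. Col12a1 had 4.85, 2.13 and 1.38 FPKM in control against 3.01, 2.16 and 2.35 in HFD. In both, control replicate 1 was above and the other controls below HFD.

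The 3 transmembrane collagens tested lay lower in HFD with no overlap, and 0 were called. Of these Col25a1 and Col13a1 reached 0.5 FPKM in 4 and 3 libraries, none of them HFD, so their lower HFD values are partly set by the minimum for testing. The remaining gene of the class, Col17a1, was not tested and ran the other way, with 5, 2 and 3 fragments in control and 12, 15 and 10 in HFD. Col23a1 had 9.49, 2.91 and 1.85 FPKM in control (161 to 926 fragments) and 1.59, 1.40 and 1.77 in HFD (144 to 178 fragments), a log2 difference of -0.92 (SE 0.40, limma adjusted p = 0.14). Most of that difference of means comes from control replicate 1, and control replicate 3 lay just above HFD. Col25a1, known in brain as the precursor of a peptide found in amyloid plaques, had 0.52, 0.33 and 0.51 FPKM in control and 0.14, 0.08 and 0.02 in HFD, a log2 difference of -0.43 (SE 0.15, limma adjusted p = 0.077). Col13a1, which helps to shape the neuromuscular junction, had 0.65, 0.41 and 0.34 FPKM in control and 0.24, 0.24 and 0.30 in HFD. The log2(FPKM + 1) scale understates differences at such levels. The median log2 difference of the 3 genes was -0.43, and it was -0.32 over all 4 genes with no minimum FPKM. It was 0.17 over the 2 genes, Col23a1 and Col17a1, that entered voom at a minimum of 10 fragments. That is another set of genes, since Col25a1 and Col13a1 have no whole counts. Glia of the gut wall, marked by 5 genes, summed to 7.73 to 21.7 FPKM in control and 7.11 to 8.07 in HFD, and pericyte markers to 110 to 301 and 52.7 to 58.4. Their part in the transmembrane values was not tested.

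**Figure D3:**
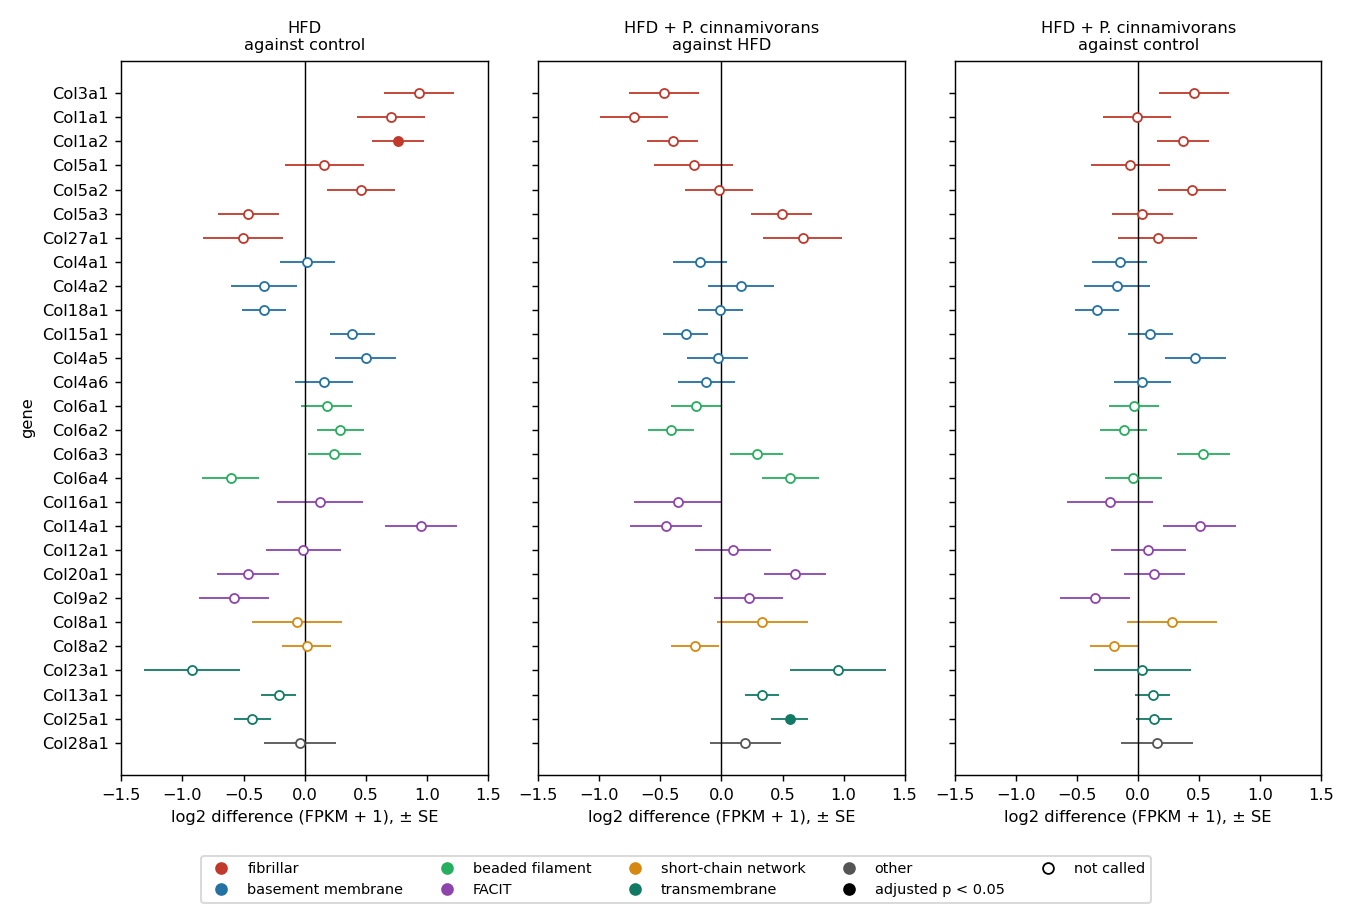
Log2 difference in FPKM + 1 with its SE for the 28 collagen genes tested, in 3 panels, 1 per comparison, coloured by class. Filled points are called at an adjusted p below 0.05: Col1a2 in HFD against control and Col25a1 in HFD with P. cinnamivorans against HFD. Col25a1 reached the minimum for testing in no HFD library.

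HFD with P. cinnamivorans was compared with HFD to ask what the bacterium added to the diet. Col25a1, a transmembrane collagen, was called higher with the bacterium, but it reached the minimum for testing in no HFD library. No type I or III chain and no other transmembrane gene was called. This comparison uses the same HFD libraries as the previous one, so a value that was high in HFD there tends to be lower here. Of the 28 collagen genes 1 was called higher (Col25a1) and 0 lower, beside 4.54% and 7.6% of all genes, and at an unadjusted p below 0.05 there were 5 higher and 1 lower, beside 11.4% and 15.4%. Groups did not overlap for 11 that were higher and 9 that were lower, beside 18.7% and 20.3% of all genes.

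Col25a1 had 0.82, 0.34 and 0.64 FPKM with the bacterium, all above the HFD values. Its mean rose from 0.08 ± 0.06 to 0.60 ± 0.24 FPKM (n = 3 each), a log2 difference of 0.56 (SE 0.15, limma adjusted p = 0.044). The call was lost when any HFD library, control replicate 2 or 3, or replicate 1 or 4 of the bacterium group was left out, at adjusted p from 0.058 to 0.146. Col25a1 reached 0.5 FPKM in replicates 1 and 3 of control and replicates 1 and 4 of the bacterium group and in no HFD library, so it entered the test only through groups where it is high. It was not tested with a minimum of 1 FPKM or with only the 2 groups in the fit, and whole counts could not be recovered for it. Col23a1 had 4.35, 3.72 and 3.96 FPKM with the bacterium, well above every HFD library, and its log2 difference of 0.95 (SE 0.40) was not called (limma adjusted p = 0.16). Col13a1 had 0.73, 0.64 and 0.40 FPKM, again above HFD, at a log2 difference of 0.33 (limma adjusted p = 0.17). Col13a1 also reached 0.5 FPKM in no HFD library, so the median of the 3 genes, 0.56, is partly set by the minimum for testing. With no minimum FPKM the median was 0.44 over all 4 genes of the class. It was -0.21 over the 2 genes, Col23a1 and Col17a1, that entered voom at a minimum of 10 fragments, which is another set of genes.

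Among fibrillar chains, Col1a1 had 16.4, 22.3 and 17.8 FPKM with the bacterium, all below HFD, with a log2 difference of -0.72 (SE 0.28, limma adjusted p = 0.14). Col1a2 had 15.5, 18.5 and 22.6 FPKM and Col3a1 43.1, 53.1 and 50.8, with every library below every HFD library in both, at log2 differences of -0.40 and -0.47 that were not called. Col5a2 had 6.87, 6.41 and 7.23 FPKM, beside 6.73, 7.08 and 6.96 in HFD (log2 difference -0.02). The fibrillar median was -0.23, against -0.01 over all genes tested. Leaving out control replicate 1 took the SE of Col1a1 from 0.28 to 0.14, and 6 of 27 collagen genes were called, with 20.4% of all genes: Col1a1 was lower and Col27a1, Col23a1, Col6a4, Col20a1 and Col25a1 were higher. Col20a1, a FACIT collagen, had 0.55 to 0.77 FPKM in HFD and 1.27 to 1.68 with the bacterium.

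No basement membrane chain was called with the bacterium. Col4a1 had 23.5, 24.8 and 25.1 FPKM with the bacterium, all just below HFD, and Col4a2 had 19.8, 20.2 and 21.4, all just above. Col18a1 had 4.58, 6.78 and 5.61 FPKM. In type VI, Col6a1 had 26.8, 31.8 and 43.8 FPKM and Col6a2 8.97, 13.5 and 14.6, whereas Col6a3 had 8.10, 8.85 and 10.5, all above HFD. The FACIT gene Col14a1 had 1.23, 3.48 and 3.64 FPKM, so that replicate 1 stood apart from the other 2 libraries. Col16a1 had 3.65, 3.24 and 3.44 FPKM and Col12a1 2.68, 3.66 and 2.01. None of these was called. Smooth muscle markers summed to 1742 to 3135 FPKM with the bacterium, and leukocyte markers to 93.7 to 150 against 369 to 403 in HFD and 105 to 130 in control. Their part in the collagen values was not tested.

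HFD with P. cinnamivorans against control called 0 of 28 collagen genes, beside 0.262% of all genes higher and 0.843% lower (limma). A single gene, Col6a3, had an unadjusted p below 0.05, beside 8.28% of all genes higher and 11.8% lower, at a log2 difference of 0.53 (SE 0.22, limma adjusted p = 0.22), and voom on recovered fragments also called 0. Groups overlapped for all 28 genes tested, where 9.86% of all genes were higher and 11.9% lower without overlap. Without control replicate 1, 4 of 27 collagen genes were called higher, with 6.74% of all genes called in either direction: Col3a1 (log2 difference 0.82), Col5a2 (0.82), Col6a3 (0.78) and Col28a1 (0.56), the last a collagen of peripheral nerve. Col28a1 had 2.72, 0.58 and 0.65 FPKM in control, 1.22, 0.99 and 1.01 in HFD and 1.58, 1.24 and 1.32 with the bacterium.

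Ratios within a library do not depend on how libraries were scaled, and by them the groups lay further apart than by summed level. Summed fibrillar over summed type IV FPKM was 1.75, 1.49 and 1.53 in control, 2.56, 2.97 and 2.98 in HFD and 2.04, 2.30 and 2.12 with the bacterium. The 3 groups did not overlap. Control replicate 1, an outlying library by level, was the highest control by this ratio, between the other controls and the bacterium group. The means were 1.59 ± 0.14, 2.84 ± 0.24 and 2.15 ± 0.14 (n = 3 each). The fibrillar share of collagen FPKM in control replicate 1 was 41.0%, against 36.2% and 35.9% in the other controls and at least 42.0% with the bacterium. Fibrillar FPKM summed to 143 in HFD on average, of which Col3a1, Col1a1 and Col1a2 held 68.4, 31.5 and 25.0. The fibrillar sums thus mostly follow these 3 chains, whereas the means of Col5a3 and Col27a1 were lower in HFD than in control. As shares of all collagen FPKM, fibrillar genes held 37.7% ± 2.83 in control, 49.7% ± 1.98 in HFD and 43.5% ± 1.40 with the bacterium. Basement membrane genes held 29.0% ± 1.61, 21.7% ± 0.80 and 24.6% ± 0.79, and all other classes 33.3% ± 1.53, 28.5% ± 1.29 and 31.9% ± 1.95. The transmembrane share was 0.647% to 0.747% in HFD, 1.69% to 3.11% in control and 1.87% to 2.76% with the bacterium. The 3.11% was control replicate 1. This share mostly follows Col23a1, which was not called in the main comparisons. On average it held 1.59 of 2.04 FPKM in HFD, 4.75 of 5.71 in control and 4.01 of 5.24 with the bacterium. No test was made on these shares and ratios, which are sums over chosen genes, and the part of colon position in them was not tested. HFD stood apart from both other groups in these ratios and in the Hox markers given above. Summed distal Hox FPKM was 34.2, 2.12 and 0.50 in control and 6.43, 12.3 and 2.47 with the bacterium.

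**Figure D4:**
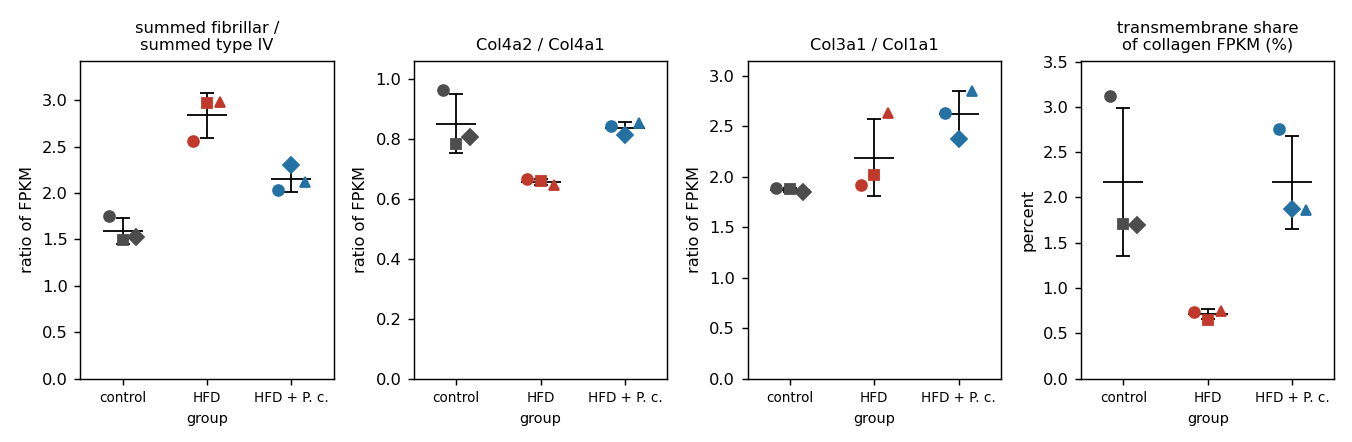
Summed fibrillar over summed type IV FPKM, Col4a2 over Col4a1, Col3a1 over Col1a1 and the transmembrane share of collagen FPKM, per library and group, with mean ± SD (n = 3) as black bars and axes from 0. The fibrillar over type IV ratio is 1.49 to 1.75 in control, 2.56 to 2.98 in HFD and 2.04 to 2.30 with P. cinnamivorans.

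Ratios between single chains differed between groups for some pairs. Col4a2 over Col4a1, which are transcribed from a shared start region and join in type IV collagen, was 0.96, 0.78 and 0.81 in control, 0.67, 0.66 and 0.64 in HFD and 0.84, 0.81 and 0.85 with the bacterium. HFD lay below both other groups, while control and the bacterium group overlapped. Col5a2 over Col5a1 was 0.72, 0.77 and 0.85 in control, 0.989, 0.991 and 0.999 in HFD and 1.25, 1.04 and 1.25 with the bacterium, without overlap between any groups. Col3a1 over Col1a1, chains of different collagens, was 1.85 to 1.88 in control, 1.92 to 2.63 in HFD and 2.38 to 2.85 with the bacterium. Col6a2 over Col6a1, chains of the same collagen, was 0.36 to 0.41 in control, 0.40 to 0.44 in HFD and 0.33 to 0.42 with the bacterium, with overlap between all groups. Col6a3 over Col6a1 was 0.15 to 0.20 in control and 0.17 to 0.20 in HFD, and 0.24 to 0.30 with the bacterium. By FPKM, Col1a1 exceeded Col1a2 in 8 of 9 libraries, but by fragments Col1a2 was the larger in all 9. FPKM divides by the length of all annotated exons, so it is a level per length and not a ratio of chains.

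The short-chain and remaining genes were low. Col8a1 and Col8a2, short-chain collagens of vessel walls and the eye, had 3.05, 0.71 and 0.42 FPKM and 1.32, 0.66 and 0.35 FPKM in control. In HFD Col8a1 had 1.10, 0.95 and 1.12 and Col8a2 0.67, 0.66 and 0.95. With the bacterium Col8a1 had 1.25, 2.65 and 1.12, with replicate 3 apart, and Col8a2 0.45, 0.45 and 0.63. Col10a1, the collagen of hypertrophic cartilage, had 0.038, 0.105 and 0.021 FPKM in control, 0.017, 0.036 and 0.128 in HFD and 0.091 in replicate 4 of the bacterium group, with 0 listed in the other 2. Col26a1 had 0.036, 0.016 and 0.008 FPKM in control and at most 0.041 in any other library. Neither reached the minimum for testing.

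The 16 genes below the minimum were not tested in the main comparison, and 6 of the 44 were listed at 0 in at least 1 library. They include Col2a1, the cartilage collagen, with 7 fragments over all 9 libraries, and Col17a1, a hemidesmosomal collagen of stratified epithelium, with 5, 2 and 3 fragments in control, 12, 15 and 10 in HFD and 1, 3 and 6 with the bacterium. Col17a1 thus stood highest in the 3 HFD libraries at counts of a few fragments. Col22a1, found at tissue junctions, had 1, 4 and 4 fragments in control, 10, 9 and 13 in HFD and 4, 3 and 1 with the bacterium. Col11a1, a minor fibrillar chain best known from cartilage, had 72, 65 and 31 fragments in control, 23, 20 and 13 in HFD and 83, 43 and 76 with the bacterium, so HFD lay below both other groups. When voom was run on recovered fragments with a minimum of 10 fragments in all, 40 collagen genes entered and Col11a1 fell by 1.71 on the log2 scale in HFD against control (SE 0.49, voom and limma adjusted p = 0.039) and rose by 1.96 with the bacterium against HFD (SE 0.48, adjusted p = 0.027). Of all genes in that test 15.2% and 9.82% were called. That test was added after the data were seen.

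Genes that make, trim, hold and break down collagen were read from lists. In HFD against control, of 15 genes that hydroxylate or glycosylate collagen chains 2 rose, P4ha1, a prolyl hydroxylase subunit (4.85 ± 1.02 to 8.54 ± 1.09 FPKM, limma adjusted p = 0.011) and Colgalt1, a collagen galactosyltransferase (8.39 ± 0.75 to 12.1 ± 0.52, adjusted p = 0.037), and 0 fell. None of 9 tested folding and export genes, 6 cross-linking genes, 12 degradation genes or 5 metalloproteinase inhibitors was called. Of 5 tested propeptide-cleaving genes 2 fell, the meprins Mep1a (147 ± 53.5 to 36.2 ± 5.59 FPKM) and Mep1b (96.8 ± 36.7 to 32.3 ± 5.42), enzymes of the epithelial brush border. Of 9 collagen receptors 2 rose, Lair1, an inhibitory receptor of leukocytes (0.99 ± 0.05 to 2.69 ± 0.32 FPKM), and Mrc1, a macrophage receptor (3.39 ± 0.65 to 7.92 ± 0.93). The integrin chain Itga2 of epithelium and platelets fell from 7.57 ± 1.69 to 3.03 ± 0.67. Among 15 basement membrane partners Lamb3, a laminin chain, fell from 33.4 ± 10.7 to 13.7 ± 1.76 FPKM, and among 17 fibril-associated proteins Bgn, the proteoglycan biglycan, rose from 18.1 ± 5.27 to 34.1 ± 1.85. Of 13 TGF-beta genes 2 rose, Skil, a pathway target (5.98 ± 1.04 to 9.92 ± 0.89 FPKM), and Tgfbr2, a receptor (11.2 ± 1.12 to 20.5 ± 0.88), and 0 fell. These counts are read beside 10.6% of all genes called higher and 9.11% lower.

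With P. cinnamivorans against HFD, 2 of 5 tested propeptide-cleaving genes rose (Mep1a and Mep1b), 1 of 9 receptors rose (Itga2) and 1 fell (Lair1), and of 13 TGF-beta genes 0 rose and 2 fell (Tgfb1 and Skil), beside 4.54% of all genes called higher and 7.6% lower. Mep1a reached 117.1 ± 26.4 FPKM (limma adjusted p = 0.0076) and Itga2 12.6 ± 2.22 from 3.03 ± 0.67 (adjusted p = 0.00075). Tgfb1, the cytokine best known for driving collagen synthesis in fibroblasts, fell from 6.38 ± 1.59 to 2.59 ± 0.35 FPKM (adjusted p = 0.0069), and in HFD against control it was not called. The other 7 pathway lists had 0 called genes in this comparison, as did all 10 in HFD with P. cinnamivorans against control. Epithelial Cdx2 was 112 ± 34.8 FPKM in control, 8.10 ± 1.40 in HFD and 68.8 ± 13.3 with the bacterium, and the meprin values moved with it and with the proximal colon markers. Their part was not tested.

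**Figure D5:**
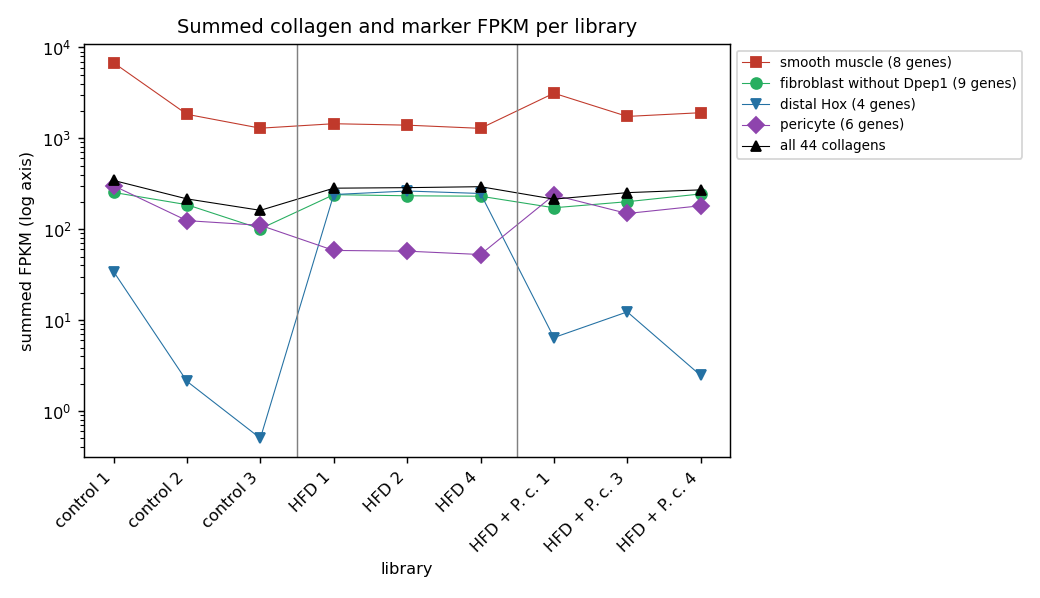
Summed FPKM on a log axis in each of the 9 libraries for all 44 collagen genes and for 4 marker lists. Distal Hox markers are at 241 to 263 in the 3 HFD libraries and at most 34.2 elsewhere, and smooth muscle markers peak at 6781 in control replicate 1.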

How the data were processed

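RNA of 9 colon libraries was analysed from 1 deposited FPKM table. Reads were aligned with HISAT2 2.0.5 to GRCm39, per the submitters' processing notes; which tool counted fragments, and on which annotation, is not given in the sources used here. FPKM multiplied by GENCODE M21 exonic length (GRCm38) and a fitted denominator per library gave whole numbers (tolerance 0.02 plus 0.0001 of the count) for 30568 of 31142 genes (98.2%). The denominators were 0.915 to 1.11 times the summed fragments, so the deposited FPKM carry a scaling other than total fragments. The 17907 genes reaching 0.5 FPKM in 3 or more libraries were compared on log2(FPKM + 1) with limma 3.58.1 (variance trend, R 4.3.3), all 9 libraries in 1 fit, with Benjamini-Hochberg adjustment per comparison. The fit was tested on simulated data. A pseudocount of 1 understates changes of low genes. Exons shared with other genes made up at most 6.07% of any collagen gene; strand use in counting is not known.

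Collagen classes, gene lists and members were chosen with earlier results of these data known. Values per library are given for called genes and for the 3 highest genes of each class. Col6a4, Col20a1, Col17a1, Col22a1 and Col11a1 and other genes outside that rule were named after their values were seen. Of each pathway list the called genes with the 3 smallest p-values are named.

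The alternatives were a pseudocount of 0.1, no minimum or a minimum of 1 FPKM, TPM scaling, quantile normalization, removal of mitochondrial and immunoglobulin genes, no variance trend, only the 2 groups compared, a replicate block and leaving out each library; voom on recovered fragments with 2 minimums and scaling to total fragments were added after seeing the data.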

Additional observations from a re-analysis of the deposited data

How the results depend on the processing

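The count of collagen genes called in HFD against control was 1. It became 2 with a pseudocount of 0.1 and with only the 2 groups in the fit, 3 with a minimum of 1 FPKM, with TPM scaling, without mitochondrial and immunoglobulin genes, with voom and with scaling to total recovered fragments, 4 with voom at a minimum of 10 fragments, and 0 with no minimum. Leaving out 1 library gave 0 to 8. For HFD with P. cinnamivorans against HFD the count was 1, and became 0 with a minimum of 1 FPKM and with voom, and 7 with only the 2 groups in the fit. In that comparison the single call with voom at a minimum of 10 fragments was Col11a1, and Col25a1 has no whole counts. Leaving out 1 library gave 0 to 6. For HFD with P. cinnamivorans against control it was 0 under every alternative except without control replicate 1, and leaving out 1 library gave 0 to 4. The extra calls in HFD against control under TPM scaling, voom and scaling to total fragments were Col3a1 and Col14a1. The share of all genes called under an alternative is given above only without control replicate 1 and for voom at a minimum of 10 fragments. The other counts stand without that share, so their moves are not read as a result about collagens. The cause of these moves was not tested. TPM scaling shifted the median of all genes by 0.24 in HFD against control and by -0.20 in the second comparison; relative to that shift the fibrillar median was 0.53 and -0.24. The median of the 15 genes of other classes went from -0.04 to 0.18 in HFD against control, which still holds that shift. Relative to the median of all genes it was -0.04 in the main fit and -0.06 with TPM scaling. With replicate 3 of control left out the fibrillar median of the third comparison turned to -0.09 from 0.16. The basement membrane share with type IV chains only was 23.7% in control, 17.6% in HFD and 20.3% with the bacterium, in the same order as 29.0%, 21.7% and 24.6%. Of 14 log2 differences with an unadjusted p below 0.05, 0 changed sign under any alternative. Of the other 70 pairs of a tested collagen gene and a comparison, 32 changed sign under at least 1 alternative, each at most 0.33 in size and none called.

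With a replicate block the counts were 0, 0 and 0, and Col1a2 had a log2 difference of 0.62 (limma adjusted p = 0.15). Groups share 2 replicate numbers at most. Deviations from the group means had correlations from -0.16 to 0.19 between same-numbered libraries and from -0.17 to 0.15 between the others. With 3 libraries a group, these values cannot show whether the numbers pair the libraries. With 3 libraries a group, differences of low collagen genes such as Col17a1 and Col22a1 rest on few fragments.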
